A study of Mus musculus with 23 samples.

Results

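The 83 genes described here encode nuclear subunits of the mitochondrial oxidative phosphorylation (OXPHOS) system, measured in cortical astrocytes of mice. They were taken by symbol from the 24411 genes of the count table, with 37 symbols assigned to complex I, 4 to complex II, 9 to complex III, 16 to complex IV and 17 to complex V. Pseudogenes and the Ndufaf assembly factors were left out. Membership followed the symbol alone, so the set also holds Ndufa4, which is now regarded as a complex IV protein, Cox7a2l, a factor that joins complexes into supercomplexes, and Atp5s and Atp5sl, which are named after ATP synthase but are not among its usual subunits. Cox4i1, Cox4i2 and Ndufab1 fell outside the symbol rule. None of the 13 subunits encoded by mitochondrial DNA has a row in the table used here, so each complex is described by its nuclear part alone.

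RNA was sequenced from astrocytes of 23 mice, isolated from dissociated cortex with magnetic beads against the astrocyte surface antigen ACSA-2, with 1 library a mouse. Every mouse carried floxed Aldh7a1 on both alleles and was labelled male, received 4-hydroxytamoxifen from postnatal day 3 to 4, and was killed at postnatal day 70. ConAstro mice (n = 4) lacked Cre and ate the control diet. cKOAstro mice (n = 7) carried Slc1a3-CreER on 1 allele, a tamoxifen-inducible Cre recombinase driven from the gene of the glutamate transporter GLAST, and ate the control diet. From postnatal day 21, SFN-fed ConAstro mice (n = 5) and SFN-fed cKOAstro mice (n = 7) of the same genotypes ate food that contained sulforaphane (SFN), a compound known to activate NRF2, a regulator of antioxidant genes. The Cre insertion lies in a gene that astrocytes themselves use, so the genotypes also differ at Slc1a3.

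OXPHOS makes most of the ATP that cells gain from oxygen. Complexes I and II take electrons from NADH and succinate, complex III passes them to cytochrome c, complex IV reduces oxygen, and the proton gradient built by complexes I, III and IV drives ATP synthase, complex V. Each complex except II joins subunits encoded by mitochondrial DNA with nuclear-encoded subunits that are imported from the cytosol. Astrocytes are known for strong glycolysis, yet hold mitochondria also in their fine processes, and ALDH7A1 is an aldehyde dehydrogenase that forms NADH.

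Libraries held 46890715 to 391701247 counts. Aldh7a1, in CPM (counts scaled to the size of the library), lay between 207.3 and 219.9 in ConAstro and between 45.9 and 77.2 in cKOAstro. In 2 SFN-fed libraries Aldh7a1 went against the label. It had 55.7 CPM in SFN-fed ConAstro 1, where the others of that group had 177 to 226. It had 222 CPM in SFN-fed cKOAstro 2, where the others had 43.0 to 56.5. Slc1a3, which holds the Cre insertion, went against the labels in the same libraries. It had 2100 CPM in SFN-fed ConAstro 1 (others 4171 to 5674) and 4436 CPM in SFN-fed cKOAstro 2 (others 1559 to 2792). The library labelled cKOAstro 2, from a mouse labelled male, had 1541 CPM of Xist and 0.01 CPM of Ddx3y. All libraries were kept under their labels, and the members, gene lists and named genes of the comparison between genotypes on the SFN diet are also given, after the main values, without both libraries that go against their labels. Groups below are the labelled groups. All 10 astrocyte markers passed the filter on low counts, with a summed level of 15316 to 30768 CPM. This sum includes Slc1a3 itself, at 1559 to 5674 CPM. In all, 9 oligodendrocyte markers summed to 22114 to 57226 CPM, so oligodendrocyte RNA was abundant in every library. In RNA from many cells, fewer cells of a type and less RNA per cell cannot be told apart.

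Of the 83 genes, 81 passed the filter on low counts. The exceptions were Ndufs5, a complex I accessory subunit with 3 counts over all 23 libraries, and Cox8c, a testis form of complex IV subunit 8 with 4 counts, all in 1 library. A count of 0 in a library allows up to 3 counts, which is 0.0077 to 0.0640 CPM at these depths and covers counting error only. Ndufs5 is in general use across tissues, so its level here is uncertain. Of the 75-base stretches of its main transcript, 24.1% also occurred in transcripts of other genes. The cause of its low counts was not tested. Levels are also uncertain for Atp5g2, Atp5l and Cox7c, with 86.9%, 76.0% and 50.4% of stretches shared. Of the 82 genes found in the annotation, 62 shared under 10% of stretches and 48 shared none.

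Levels are compared between genes as CPM per kilobase of the principal transcript. Atp5b, the catalytic beta subunit of ATP synthase (chr10:128083273-128090391 in GRCm38), had the highest level of the set. On the control diet it stood at 410.1 ± 9.37 CPM per kilobase (SD) in the 4 ConAstro libraries and 408 ± 39.3 in the 7 cKOAstro libraries. On the SFN diet it stood at 392.4 ± 26.6 in the 5 libraries labelled SFN-fed ConAstro and 434 ± 34.5 in the 7 labelled SFN-fed cKOAstro. Without both libraries that go against their labels these were 388 ± 28.6 (n = 4) and 431 ± 36.8 (n = 6). These ranges overlap. Averaged over the 23 libraries, the highest levels of the other complexes were those of Cox6a1 in complex IV (254), Uqcrc1 in complex III (147), Ndufb9 in complex I (145) and Sdha in complex II (129.8). Median levels were 64.6 CPM per kilobase in complex I, 68.1 in complex II, 104 in complex III, 81.5 in complex IV and 98.3 in complex V. Lowest in their complex were Ndufb4 (3.50, with 35.2% of its stretches shared with other genes), Sdhc (36.9), Uqcrq (44.1), Cox7b2 (0.399) and Atp5g1 (6.22). The place of Atp5g1 rests on a principal transcript of 4715 bases, and in CPM it stood at 29.3, above the 10.9 of Atp5s, for example.

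**Figure D1:**
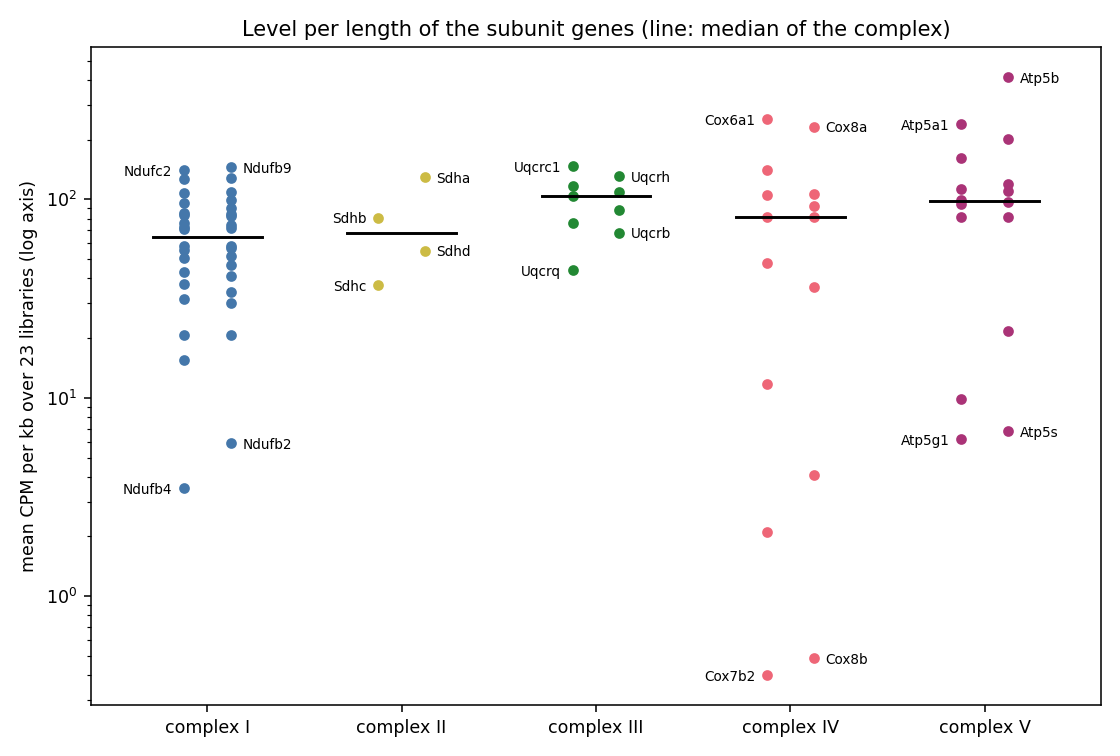
Level of each subunit gene that passed the filter and has an annotated length, as the mean CPM per kilobase over 23 libraries on a log axis, by complex, with a line at the median of the complex. Atp5b lies highest at 413, and Cox7b2 and Cox8b lie lowest, at 0.399 and 0.487.

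Several subunits are encoded by more than 1 gene, and in each such set 1 form made up most of the level per length. Cox6a1 held 99.2% of its sum with Cox6a2, the form of heart and skeletal muscle. Cox8a held 99.8% of its sum with Cox8b and Cox8c, and Cox7b 99.2% of its sum with Cox7b2. Cox6b1 held 92.3% of its sum with Cox6b2, a form best known from testis. In the Cox7a family, Cox7a2 made up 66.9%, Cox7a2l 29.7% and the muscle form Cox7a1 3.33%. Of the 3 genes for the same mature c subunit of ATP synthase, Atp5g3 made up 87.8%, Atp5g2 9.51% and Atp5g1 2.72%. The order of the latter pair depends on length, since the principal transcript has 731 bases in Atp5g2 and 4715 in Atp5g1. In CPM Atp5g1 was the higher, at 29.3 against 15.9, and the reads of Atp5g2 are uncertain for the shared sequence named above. Across the 23 libraries the share of Atp5g3 lay between 86.5% and 89.2% and that of Cox7a2 between 64.2% and 69.6%. Ndufa4l2, a hypoxia-inducible paralog of Ndufa4, ranged more widely, from 7.12% to 19.6% of their sum. It held 16.9% ± 3.31 (SD, n = 5) in SFN-fed ConAstro and 11.3% ± 3.19 (n = 7) in SFN-fed cKOAstro. Without both libraries that go against their labels it held 18.3% ± 1.43 (n = 4) and 11.6% ± 3.37 (n = 6).

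The members moved together from library to library. After group means were removed, the log2 level of 74 of the 81 genes had a Pearson correlation above 0.5 with the mean of the other members over 23 libraries, with a median of 0.89. Among 17221 other genes that passed the filter, 10.8% had a correlation above 0.5 with the members' mean. Atp5h (0.98), Ndufs3 (0.97) and Atp5j (0.97) followed it most closely. Cox6a2 (-0.28), Ndufa4l2 (0.04) and Atp5sl (0.15) followed it least, and Cox6b2, Cox8b, Cox7b2 and Cox7a1 lay between 0.26 and 0.43. Libraries share depth and composition across genes, and the movement was not limited to this set. The mean of 77 mitochondrial ribosomal proteins correlated with the members' mean at 0.89, that of 81 cytosolic ribosomal proteins at 0.80 and that of 43 assembly factors at 0.92.

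Each library was then given the mean deviation of its members from their means over the 23 libraries, in log2 CPM. ConAstro libraries lay at -0.04, -0.04, -0.03 and -0.07. cKOAstro libraries ran from -0.30 through a median of 0.07 to 0.13. The groups overlapped on this measure. SFN-fed ConAstro libraries lay at 0.05, -0.20, -0.06, -0.08 and -0.23, and SFN-fed cKOAstro libraries ran from -0.06 through a median of 0.03 to 0.44. In SFN-fed cKOAstro 1, the highest library, 80 of 81 members lay above their mean over the libraries. In cKOAstro 1, the lowest, 1 of 81 did. These libraries lay farthest from their group means, which were 0.10 and -0.001, so they weigh most in the correlations above. The correlations were not computed without them. In SFN-fed cKOAstro 1 the cytosolic ribosomal proteins stood at 0.57 and the mitochondrial ribosomal proteins at 0.31. The library labelled SFN-fed cKOAstro 2, whose Aldh7a1 is at the control level, was second highest at 0.17. SFN-fed ConAstro 1, whose Aldh7a1 is at the deleted level, was the highest of its group.

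**Figure D2:**
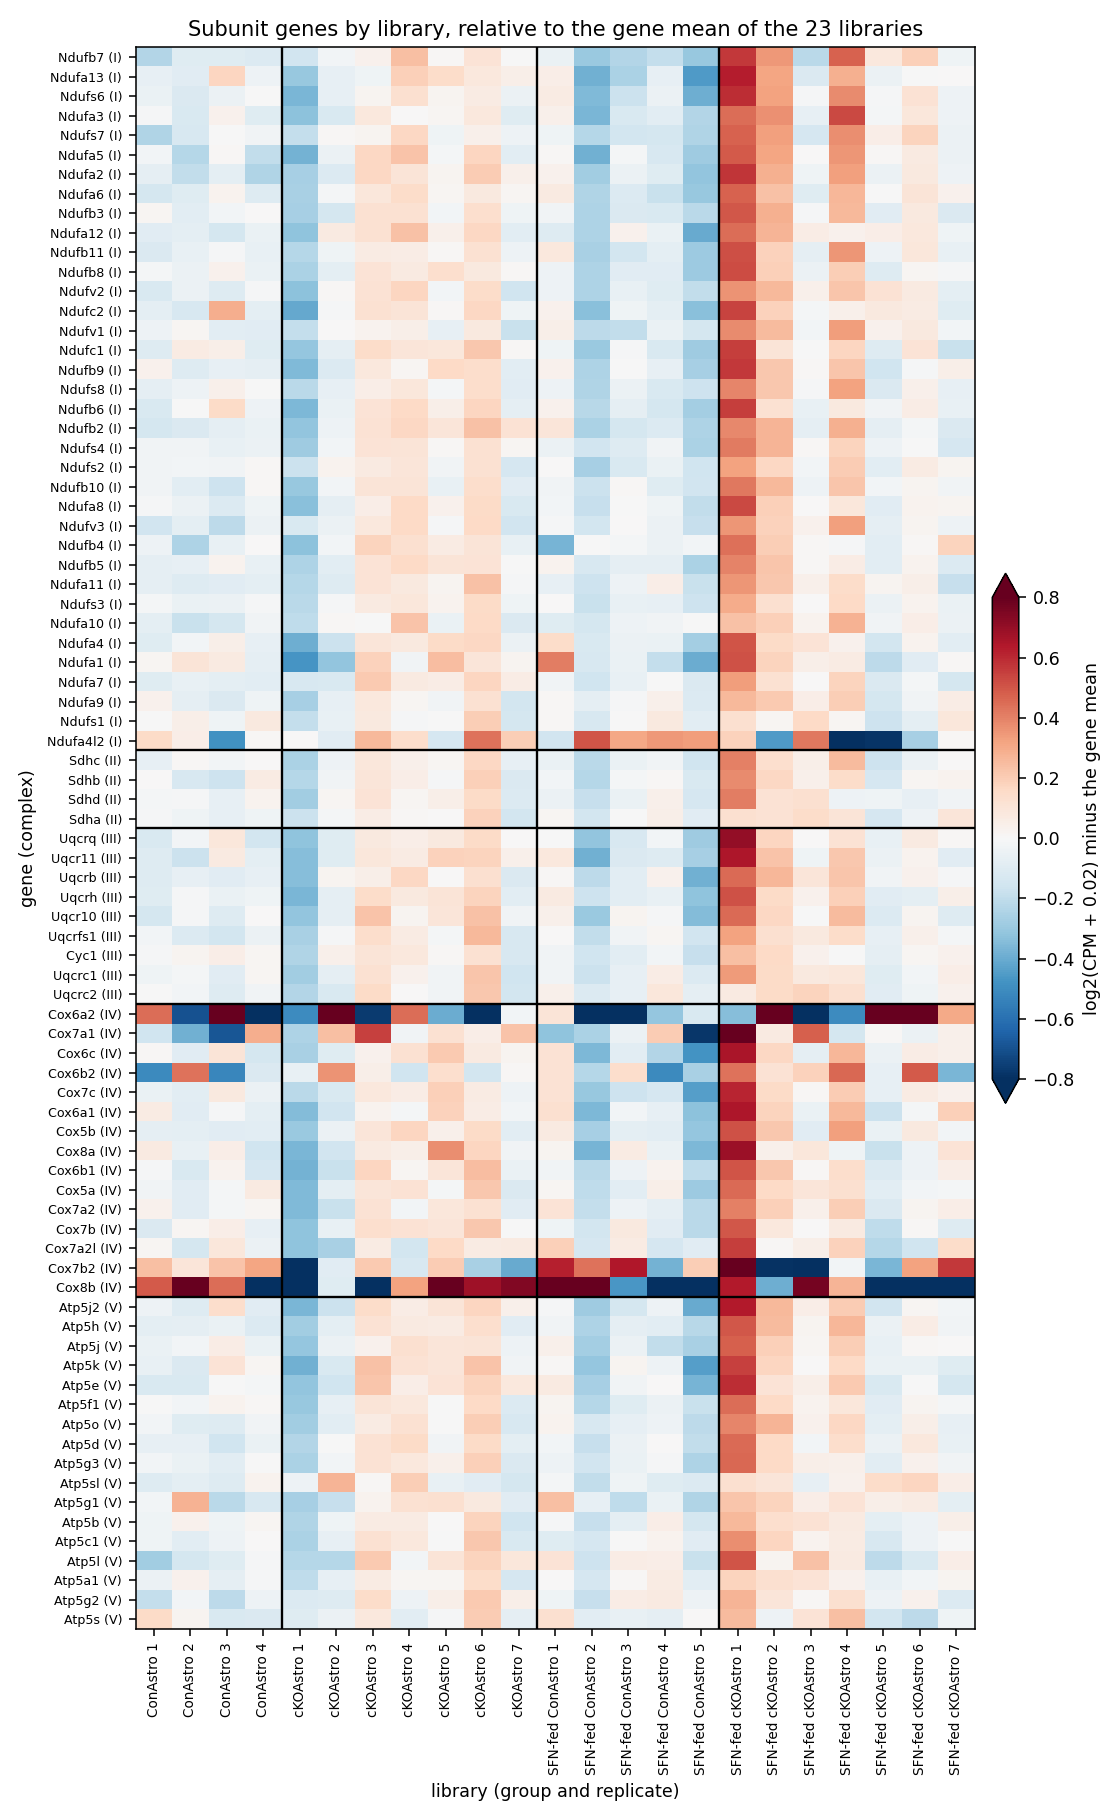
Heat map of log2(CPM + 0.02) of the 81 tested genes minus each gene's mean over the 23 libraries, with genes in rows by complex (ordered within it by the fold change between genotypes on the SFN diet) and libraries in columns by group. Most rows share the column pattern, with SFN-fed cKOAstro 1 high and cKOAstro 1 low, where 80 and 1 of 81 members lie above their mean.

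**Figure D3:**
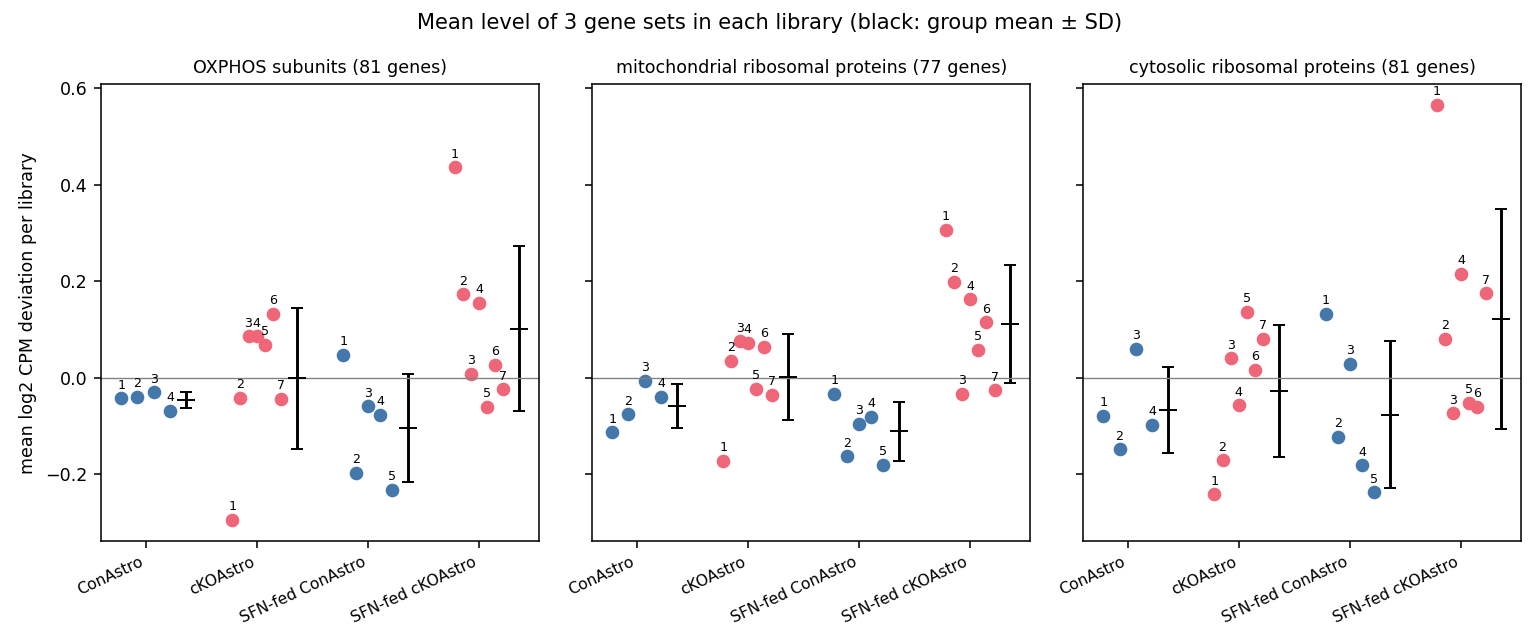
Mean log2 CPM deviation in each library, on the vertical axis, of the OXPHOS subunits, the mitochondrial ribosomal proteins and the cytosolic ribosomal proteins, with a point per library numbered by replicate and the group mean ± SD in black. SFN-fed cKOAstro 1 is the highest library for each list, at 0.44, 0.31 and 0.57.

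The promoters of the members were searched for the letters that known regulators of OXPHOS genes bind, since the transcripts moved together. RefSeq promoters of GRCm38.p6, from 250 bases before to 50 after a start, were found for 69 members. On either strand, GCGCATGC, a core of the site of nuclear respiratory factor 1 (NRF1), occurred in 10 of 69 members (14.5%) and in 5.10% of 12814 genes that passed the filter. CCGGAAGT, a site of ETS factors such as GABPA, occurred in 5 (7.25%), against 7.32%. AAGATGGCG, a site of YY1, occurred in 8 (11.6%), against 2.84%, and TCAAGGTCA, a site of ESRRA, in 2 (2.90%), against 0.31%. TGACNNNGC, the core of the antioxidant response element that NRF2 binds, occurred in 9 (13.04%), against 16.5%. None of these motifs holds another, but the NRF1 letters can overlap their own reverse complement, and each promoter was counted once. A match is a description of letters and not of binding.

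The 120 bases before the start are shown, 5′ to 3′ on the strand of the gene. The members are those named below for the genotypes on the SFN diet that held an NRF1 or ETS match there. They were named by the lowest p within their complex, and in complex II every gene was named. Of 18 members so named with a RefSeq promoter, 3 held an NRF1 match in it and 2 an ETS match. The matched letters are in capitals. The match begins 83 bases before the start in Ndufa6 (NRF1, chr15:82354292-82354411, minus strand) and 54 in Sdhb (NRF1, chr4:140961151-140961270, plus strand). In Uqcr11 an ETS match begins at 66 bases and the capitals at the end are the first letters of an NRF1 match that runs past the start (chr10:80406822-80406941, minus strand). In Atp5h an ETS match begins 39 bases before the start (chr11:115419920-115420039, minus strand).
Ndufa6: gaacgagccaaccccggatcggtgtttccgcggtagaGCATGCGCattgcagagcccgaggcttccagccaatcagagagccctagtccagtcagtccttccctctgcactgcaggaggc
Sdhb: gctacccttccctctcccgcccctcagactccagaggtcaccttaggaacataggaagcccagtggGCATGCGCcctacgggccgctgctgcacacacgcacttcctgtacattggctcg
Uqcr11: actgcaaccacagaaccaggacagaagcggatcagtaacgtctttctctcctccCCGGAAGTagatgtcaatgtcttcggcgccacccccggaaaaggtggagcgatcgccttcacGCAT
Atp5h: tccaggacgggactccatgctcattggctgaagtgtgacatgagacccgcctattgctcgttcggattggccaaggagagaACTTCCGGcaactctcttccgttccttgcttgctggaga

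The genotypes were first compared on the control diet, which asks whether loss of ALDH7A1 goes with a change in OXPHOS transcripts. In edgeR's quasi-likelihood test 0 of 81 members passed an adjusted p of 0.05, and 0.023% of 17406 genes did. DESeq2 and limma-voom also called 0 members. At an unadjusted p under 0.05, 1 member was higher in cKOAstro and 0 were lower, where 1.71% and 2.03% of all genes were higher and lower. The median log2 fold change of the members was 0.04, against -0.01 for all genes, and 65 of 81 were higher. Ndufb7, a small accessory subunit of complex I on the intermembrane space side, had 44.7, 49.1, 49.1 and 48.8 CPM in ConAstro and ran from 47.2 through 52.9 to 62.1 in cKOAstro. The groups overlapped, and its log2 fold change was 0.16 ± 0.07 (SE, unadjusted p = 0.0348, adjusted p = 0.981 in edgeR). Ndufa2 (0.17 ± 0.09) and Ndufv3 (0.13 ± 0.07), also of complex I, had the next lowest p. Without cKOAstro 1, the lowest library, the median was 0.09. Then 12 members were higher at an unadjusted p under 0.05, where 2.28% of all genes were. Without cKOAstro 2, the library with Xist, 3 were higher, against 1.79% of all genes, and the median was 0.06. The count was 0 without ConAstro 1 or cKOAstro 6. It was 2 without ConAstro 2 or cKOAstro 7, where 1.24% and 1.33% of all genes were higher. With a trend over transcript length removed the median was -0.01.

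On the SFN diet 78 of 81 members had a higher level in the group labelled SFN-fed cKOAstro than in that labelled SFN-fed ConAstro, with a median log2 fold change of 0.21 (quartiles 0.15 and 0.28) against 0.01 for all genes. Of these 43 had an unadjusted p under 0.05, as did 1 of the lower members. Among 16672 genes, 11.4% were higher and 8.89% lower at that threshold, so such values were common in this comparison. No member passed adjustment over all genes in edgeR, where 0.0% of all genes did and the lowest adjusted p of a member was 0.195. DESeq2 called 0 members and 250 genes. Limma-voom with sample quality weights, which gives less weight to libraries that scatter more, called 27 members, 26 of them higher, among 4398 genes (26.4%). No member separated the groups completely, as 1.19% of all genes did in either direction. For 9 members (11.1%) 6 of 7 SFN-fed cKOAstro libraries lay above every SFN-fed ConAstro library, as for 3.42% of all genes, and for 21 (25.9%) 5 of 7 did, as for 6.91% of all genes.

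**Figure D4:**
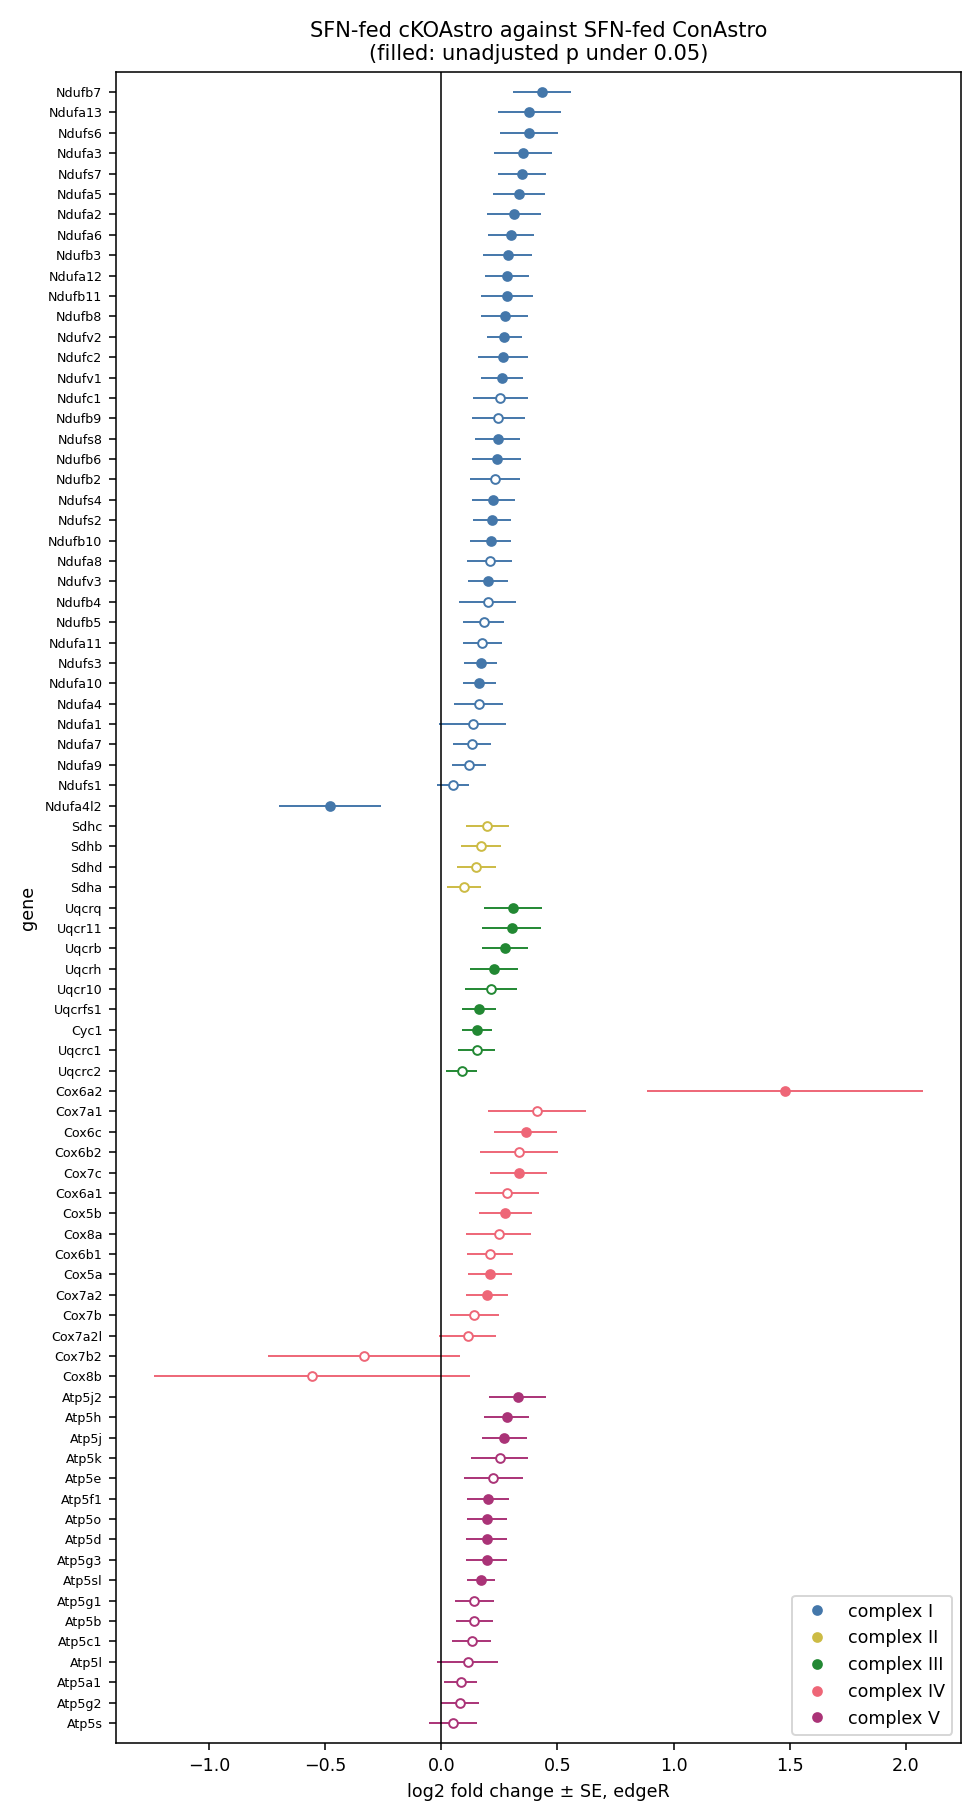
Log2 fold change ± SE of each of the 81 genes in SFN-fed cKOAstro against SFN-fed ConAstro, by complex, with filled points where the unadjusted p was under 0.05. All but 3 genes lie above 0, in all 5 complexes, and Cox6a2 lies farthest, at 1.48.

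Complex I, the NADH dehydrogenase, had 35 of 36 tested members higher, 23 of them at an unadjusted p under 0.05, with a median of 0.24. Ndufv2, a core subunit of the NADH-binding module that holds an iron-sulfur cluster (chr17:66078638-66101559), had 85.5, 74.1, 84.3, 82.0 and 76.6 CPM in SFN-fed ConAstro and ran from 83.4 through 95.1 to 113 in SFN-fed cKOAstro. Of the 7 SFN-fed cKOAstro libraries, 6 lay above every SFN-fed ConAstro library. Its log2 fold change was 0.27 ± 0.08 (unadjusted p = 0.00380). Ndufb7 (chr8:83566671-83571626) had 50.7, 42.7, 44.7, 46.1 and 42.6 CPM in SFN-fed ConAstro and ran from 45.2 through 59.9 to 77.7 in SFN-fed cKOAstro. SFN-fed cKOAstro 3 was the only library of its group not above every library labelled SFN-fed ConAstro. The highest of these is SFN-fed ConAstro 1, whose Aldh7a1 goes against its label. The log2 fold change was 0.43 ± 0.12 (unadjusted p = 0.00401). Leaving out SFN-fed cKOAstro 3 let 2 members pass adjustment in edgeR, among 4.22% of all genes. These were Ndufb7 (adjusted p = 0.0355 in edgeR) and Ndufs7 (adjusted p = 0.0415 in edgeR).

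Ndufs7 (0.35 ± 0.10), a core subunit close to the quinone site, Ndufs6 (0.38 ± 0.13), which takes part in the assembly of the NADH-binding module, and Ndufa6 (0.30 ± 0.10), an accessory subunit of the LYR family, were the other complex I genes with the lowest p. Ndufs6 had 41.5, 31.1, 35.2, 38.5 and 30.2 CPM in SFN-fed ConAstro and ran from 38.7 through 43.0 to 59.9 in SFN-fed cKOAstro, where 4 of 7 libraries lay above every library labelled SFN-fed ConAstro. The 7 core subunits, which carry the electron path, had a median of 0.24 and the 29 other members also had 0.24. Among the core subunits Ndufs1, the largest, stood lowest at 0.05 ± 0.07.

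Ndufa4l2 was the only complex I symbol that was lower (chr10:127514967-127517154). It had 16.9, 26.7, 23.3, 23.9 and 23.7 CPM in SFN-fed ConAstro and ran from 9.36 through 15.6 to 25.2 in SFN-fed cKOAstro, where 4 of 7 libraries lay below every library labelled SFN-fed ConAstro. Its log2 fold change was -0.48 ± 0.22 (unadjusted p = 0.0481). In brain the gene is known from pericytes. Of 9 mural cell markers, 8 were also lower, 5 at an unadjusted p under 0.05, with a median of -0.48. Their summed level ranged from 1329 to 2117 CPM in SFN-fed ConAstro and from 767 to 1842 CPM in SFN-fed cKOAstro, and none of the 9 was at 0. Endothelial markers were lower in 9 of 9, 6 of them at that threshold, with a median of -0.80 and a summed level of 522 to 838 CPM and 197 to 838 CPM. The part of these cells in the result was not tested.

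Complex II, succinate dehydrogenase, links the tricarboxylic acid cycle with the electron chain and is wholly nuclear-encoded. All 4 subunits were higher, but none at an unadjusted p under 0.05. Their log2 fold changes were 0.20 ± 0.09 for the membrane anchor Sdhc, 0.17 ± 0.08 for the iron-sulfur subunit Sdhb, 0.15 ± 0.08 for the other anchor Sdhd and 0.10 ± 0.07 for the flavoprotein Sdha. Sdhb had 90.7, 78.4, 90.9, 92.8 and 84.6 CPM in SFN-fed ConAstro and ran from 83.7 through 94.7 to 119.7 CPM in SFN-fed cKOAstro. Of 7 SFN-fed cKOAstro libraries, 6 lay above every library labelled SFN-fed ConAstro, in some cases narrowly.

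Complex III, cytochrome bc1, had 9 of 9 members higher and 6 at an unadjusted p under 0.05, with a median of 0.22. Small subunits led, with Uqcrq at 0.31 ± 0.12, Uqcr11 at 0.30 ± 0.13 and Uqcrb at 0.27 ± 0.10. Uqcrq (chr11:53427922-53430831) had 66.1, 53.2, 60.7, 65.3 and 54.5 CPM in SFN-fed ConAstro and ran from 63.5 through 69.6 to 108 in SFN-fed cKOAstro, with 6 of 7 libraries above that whole group. The electron-carrying subunits Cyc1 (cytochrome c1, 0.15 ± 0.06) and Uqcrfs1 (the Rieske iron-sulfur protein, 0.16 ± 0.07) had smaller values. Cyc1 had 154, 140.2, 148, 154 and 138 CPM in SFN-fed ConAstro and ran from 149 through 161 to 185 in SFN-fed cKOAstro, also with 6 of 7 libraries above it. Uqcrc2, a core protein without a redox centre, had 0.09 ± 0.07.

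Complex IV, cytochrome c oxidase, had 13 of 15 tested members higher and 6 at an unadjusted p under 0.05, with a median of 0.25. Cox6c (0.36 ± 0.14), Cox7c (0.33 ± 0.12), Cox5b (0.28 ± 0.11) and Cox5a (0.21 ± 0.09) are structural subunits around the catalytic core. Cox6c (chr15:35925886-35938246) had 84.2, 60.5, 73.2, 65.9 and 55.7 CPM in SFN-fed ConAstro and ran from 73.8 through 80.8 to 122 in SFN-fed cKOAstro. The first value of SFN-fed ConAstro belongs to the library whose Aldh7a1 was at the deleted level, and without both libraries that go against their labels the log2 fold change of Cox6c was 0.46. Cox7c had 47.2, 35.3, 38.8, 39.6 and 32.1 CPM in SFN-fed ConAstro and ran from 41.6 through 45.6 to 66.6 in SFN-fed cKOAstro.

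Cox6a2 had the largest fold change of the set, 1.48 ± 0.59 (unadjusted p = 0.0269), at a low level. Its CPM were 1.17, 0.510, 0.567, 0.877 and 1.000 in SFN-fed ConAstro. The SFN-fed cKOAstro libraries had 0.858, 3.42, 0.567, 0.763, 6.85, 2.26 and 1.35 CPM. The groups overlapped, and SFN-fed cKOAstro 2, 5 and 6 stood highest. In the same 3 libraries the summed level of 10 neuronal markers was the highest of the group, at 679, 755 and 796 CPM, where the other 4 had 195 to 502 CPM and SFN-fed ConAstro had 248 to 706 CPM. Outside this group the match varied. cKOAstro 4 had the highest neuronal sum of all libraries, 897 CPM, with Cox6a2 at 1.495 CPM. SFN-fed ConAstro 5 had 706 CPM with Cox6a2 at 1.000 CPM, and cKOAstro 2 had 454 CPM with 2.72 CPM. ConAstro 1 and 3 had neuronal sums of 632 and 443 CPM with Cox6a2 at 1.49 and 1.91 CPM. ConAstro 2 and 4 had 294 and 236 CPM with 0.66 and 0.60 CPM. The part of neuronal RNA in the result was not tested. Without both libraries that go against their labels the log2 fold change was 1.51 (unadjusted p = 0.0513 in edgeR). Without SFN-fed cKOAstro 5 the log2 fold change was 0.91 and the unadjusted p 0.0728 in edgeR.

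Complex V, ATP synthase, had 17 of 17 members higher and 8 at an unadjusted p under 0.05, with a median of 0.20. Atp5h, subunit d of the peripheral stalk (chr11:115415689-115419962), had 107, 91.9, 104, 103 and 93.5 CPM in SFN-fed ConAstro and ran from 105 through 114 to 154 in SFN-fed cKOAstro, with 6 of 7 libraries above that whole group. Its log2 fold change was 0.28 ± 0.10 (unadjusted p = 0.0122), and it shares 36.5% of its stretches with another gene. Atp5j (0.27 ± 0.10) and Atp5o (0.20 ± 0.09) also belong to the stalk. Of the exon bases of Atp5o, 47.9% lie under other gene entries. The entry that shares most of its stretches carries the same symbol. Atp5j2, the membrane subunit f, had 0.33 ± 0.12, and Atp5sl had 0.17 ± 0.06. The head subunits had smaller values, 0.14 ± 0.08 for Atp5b and 0.08 ± 0.07 for Atp5a1.

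Members with short transcripts had higher fold changes than members with long ones. The median log2 fold change on the SFN diet was 0.25 for 36 members with a principal transcript under 750 bases, 0.20 for 25 of 750 to under 1500 bases and 0.16 for 19 of 1500 bases or more, with a Spearman correlation of -0.31 over 80 members. All genes had medians of 0.16, 0.16 and -0.02 in the same classes and a Spearman correlation of -0.36 over 16027 genes, given as a description. Genes of 1 library share depth and composition. With the trend over length removed from every library, the members' median was 0.07, against 0.02 for all genes, and 67 of 80 were higher. Then 13 members were higher at an unadjusted p under 0.05, where 9.61% of all genes were. Ndufv2 then had 0.18 (unadjusted p = 0.00761) and Ndufb7 0.25 (unadjusted p = 0.00733). The part of the length trend in the result was otherwise not tested.

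**Figure D5:**
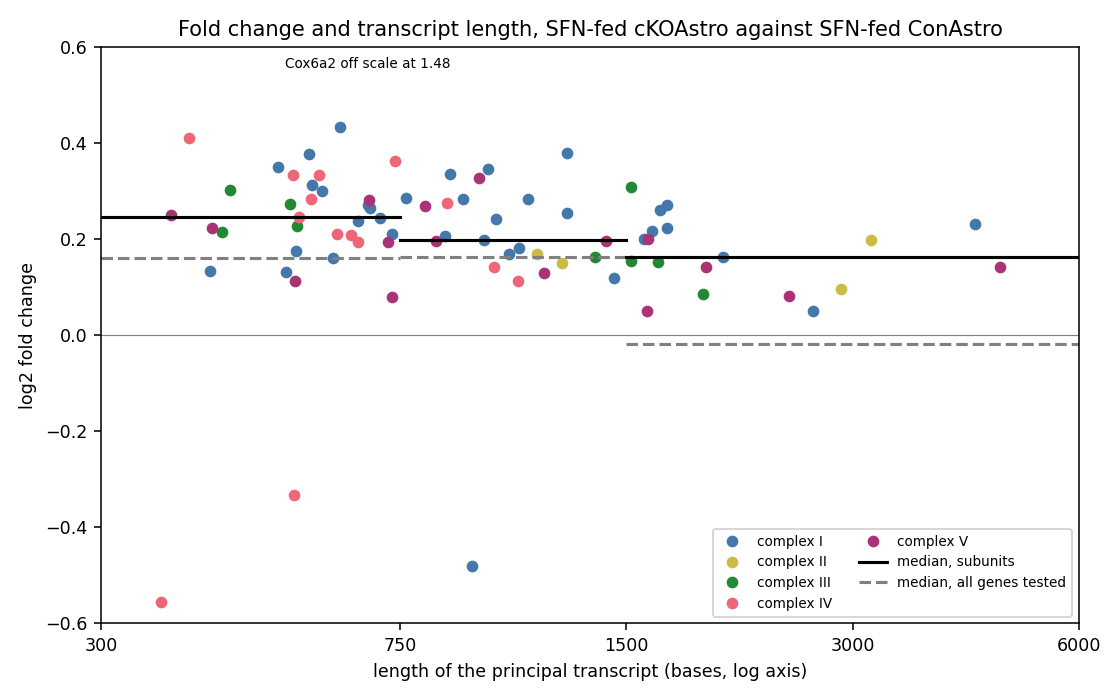
Log2 fold change of each member in SFN-fed cKOAstro against SFN-fed ConAstro, plotted over the length of its principal transcript in bases on a log axis, with solid lines at the members' median and dashed lines at the median of all genes in each of 3 length classes. The members' median lies above that of all genes in each class, at 0.16 against -0.02 among transcripts of 1500 bases or more, and Cox6a2 is off scale at 1.48.

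Leaving out both libraries that go against their labels kept the direction on the SFN diet. The members' median was then 0.24, 79 of 81 were higher, and 34 were higher at an unadjusted p under 0.05, where 9.01% of all genes were. Of the members, 14 (17.3%) then had all 6 remaining SFN-fed cKOAstro libraries above all 4 of SFN-fed ConAstro, as had 3.05% of all genes. Ndufs6, Ndufs7 and Atp5h were among these, and for Ndufb7 and Ndufv2 it was 5 of 6. By complex, 20 of 36 members of complex I were higher at an unadjusted p under 0.05 (median 0.27), 0 of 4 of complex II (0.16), 4 of 9 of complex III (0.25), 5 of 15 of complex IV (0.31) and 5 of 17 of complex V (0.20). Log2 fold changes were 0.46 ± 0.14 for Ndufb7, 0.28 ± 0.09 for Ndufv2, 0.36 ± 0.12 for Ndufs7, 0.43 ± 0.14 for Ndufs6 and 0.29 ± 0.11 for Atp5h (SE). Ndufa4l2 had -0.53 ± 0.24 (unadjusted p = 0.0515), with mural markers lower in 8 of 9, 3 at that threshold (median -0.49), and endothelial markers lower in 9 of 9, 1 at that threshold (median -0.80).

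Other libraries also moved these values. Without SFN-fed cKOAstro 1 the median was 0.15, with 34 of 80 members higher at that threshold, where 10.5% of all genes were. The count fell to 19 and 20 without SFN-fed ConAstro 2 or 5, the lowest libraries of that group. There 8.23% and 8.12% of all genes were higher. It fell to 27 and 26 without SFN-fed cKOAstro 2 or 4, where 8.74% and 9.78% of all genes were higher. Library names begin with Astro or with a number, and 1 SFN-fed ConAstro and 3 SFN-fed cKOAstro libraries were of the first kind. The numbers differ too. SFN-fed ConAstro 2 and 3 carry 145 and 4 and 5 carry 147, whereas SFN-fed cKOAstro 1, 2 and 7 carry 143 and 3 carries 147, so number and group cannot be told apart beyond those sharing 147. There the members' mean log2 deviation was 0.01 in SFN-fed cKOAstro 3 and -0.08 and -0.23 in SFN-fed ConAstro 4 and 5. Ndufb7 had 45.2 CPM in SFN-fed cKOAstro 3 and 46.1 and 42.6 CPM in SFN-fed ConAstro 4 and 5. Only SFN-fed cKOAstro 3 stands on its side of that number, so the difference was not tested. With all numbers pooled as 1 series, the median within the numbered libraries was 0.29. There 55 of 80 members were higher at that threshold, where 7.20% of all genes were. Of the libraries that go against their labels, this series leaves out SFN-fed ConAstro 1 but keeps SFN-fed cKOAstro 2. The other series holds too few SFN-fed ConAstro libraries for a value.

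Other mitochondrial genes were compared on the same diet by lists that are described here and were not tested as sets. Of 77 mitochondrial ribosomal proteins, 77 were higher and 57 at an unadjusted p under 0.05, with a median of 0.22. Of 43 assembly factors, 38 were higher and 16 at that threshold (median 0.14), and of 17 import and membrane proteins 16 were higher and 10 at that threshold (median 0.19). Of 14 tricarboxylic acid cycle enzymes, 12 were higher and 5 at that threshold (median 0.12). All 81 tested cytosolic ribosomal proteins were higher, 14 at that threshold (median 0.20), so the direction was not limited to mitochondrial genes. Of 25 NRF2 targets, 17 were higher and 2 at that threshold (median 0.05). Among 5 subunits and carriers outside the symbol rule, 4 were higher, and Cox4i1, a subunit next to the core of complex IV, had 0.30 ± 0.13. Without both libraries that go against their labels 76 of 77 mitochondrial ribosomal proteins were higher, 45 at that threshold (median 0.22), as were 36 of 43 assembly factors, 13 at that threshold (0.15), 16 of 17 import and membrane proteins, 7 (0.19), 12 of 14 tricarboxylic acid cycle enzymes, 3 (0.12), and 81 of 81 cytosolic ribosomal proteins, 21 (0.28). Of 25 NRF2 targets, 14 were higher and 1 at that threshold (0.04), and Cox4i1 had 0.36 ± 0.15.

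Regulators of mitochondrial biogenesis had a negative median, -0.08. Of 14, 4 were higher, 2 of them at an unadjusted p under 0.05, and 2 were lower at that threshold. Ppargc1a, a coactivator that stimulates OXPHOS genes, averaged 59.5 ± 6.81 CPM (SD, n = 5) in SFN-fed ConAstro and 48.6 ± 9.55 CPM (n = 7) in SFN-fed cKOAstro. Its log2 fold change was -0.30 ± 0.13 (unadjusted p = 0.0419 and adjusted p = 0.235 in edgeR). Esrra, a nuclear receptor that works with it, averaged 56.1 ± 6.69 and 68.4 ± 8.17 CPM in the same groups, with 0.28 ± 0.09 (unadjusted p = 0.0105 and adjusted p = 0.195 in edgeR). Nrf1 (0.09 ± 0.06) and Gabpa (-0.13 ± 0.07), whose proteins bind OXPHOS promoters, and Tfam (0.09 ± 0.06), which packages mitochondrial DNA, had no unadjusted p under 0.05. Without both libraries that go against their labels the median of the regulators was -0.05, with 2 higher and 0 lower at that threshold. Ppargc1a then had -0.32 ± 0.15 (unadjusted p = 0.0591 in edgeR), so it no longer passed, and Esrra 0.33 ± 0.11 (unadjusted p = 0.0095 in edgeR).

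The diet was compared within each genotype, which asks how SFN feeding goes with these transcripts. Between the groups without Cre by label, 11 of 81 members were higher in SFN-fed ConAstro than in ConAstro, with a median log2 fold change of -0.06, against -0.01 for all genes. In edgeR 0 members and 0.0% of all genes passed an adjusted p of 0.05, and DESeq2 and limma-voom called 0 members. At an unadjusted p under 0.05, 0 members were higher and 3 lower, against 3.54% and 3.0% of all genes. Cyc1 had 156, 159.6, 163 and 159 CPM in ConAstro, all above the 138 to 154 of SFN-fed ConAstro. It was the only member whose groups did not overlap, as was the case for 1.97% of all genes. Its log2 fold change was -0.12 ± 0.05 (unadjusted p = 0.0248 and adjusted p = 0.762 in edgeR). The complex I membrane-arm subunits Ndufb3 (-0.13 ± 0.05) and Ndufb8 (-0.14 ± 0.06) were the others at an unadjusted p under 0.05. Without SFN-fed ConAstro 1, whose Aldh7a1 goes against its label, 19 members were lower and 1 higher at that threshold. Of 16405 genes, 727 were lower and 652 higher in that fit, and the members' median was -0.10. The count was 0 without SFN-fed ConAstro 5 and 1 without SFN-fed ConAstro 2 or ConAstro 3 or 4.

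Between the groups with Cre by label, 79 of 81 members were higher on the SFN diet than on the control diet, with a median of 0.11, against 0.01 for all genes. In edgeR 0 members and 0.0% of all genes passed adjustment, and DESeq2 and limma-voom called 0 members. At an unadjusted p under 0.05, 3 were higher and 0 lower, where 5.38% and 5.5% of all genes were, so the members' count is near that of all genes. Ndufv1, the core subunit that binds NADH, ran from 131 through 149.9 to 158 CPM in cKOAstro and from 147 through 158 to 194 CPM in SFN-fed cKOAstro. The groups overlapped, and its log2 fold change was 0.20 ± 0.08 (unadjusted p = 0.0277 and adjusted p = 0.459 in edgeR). The accessory subunits Ndufa3 (0.26 ± 0.11) and Ndufs6 (0.24 ± 0.11) were the others at an unadjusted p under 0.05. Without SFN-fed cKOAstro 1 the median was 0.06 with 1 member at that threshold, and without cKOAstro 1 it was 0.06 with 0. The count was 0 without SFN-fed cKOAstro 2, whose Aldh7a1 goes against its label (median 0.10), without SFN-fed cKOAstro 4, and within the numbered libraries (median 0.14). It was 9, 7 and 6 without SFN-fed cKOAstro 3, SFN-fed cKOAstro 5 or cKOAstro 4, and 2 without cKOAstro 2.

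SFN-fed cKOAstro was last compared with ConAstro, which asks how the deletion on the SFN diet stands against the control on the control diet. Of 81 members, 77 were higher, with a median of 0.15, against -0.01 for all genes. No member and 0.0% of all genes passed adjustment in edgeR, and DESeq2 and limma-voom called 0 members. At an unadjusted p under 0.05, 9 were higher and 0 lower, against 4.01% and 4.66% of all genes, and 8 of the 9 were complex I genes. Ndufa2, an accessory subunit with a thioredoxin-like fold, had 40.7, 37.4, 40.6 and 36.3 CPM in ConAstro and ran from 41.5 through 45.2 to 63.7 in SFN-fed cKOAstro. The groups did not overlap, and its log2 fold change was 0.31 ± 0.12 (unadjusted p = 0.0253 and adjusted p = 0.557 in edgeR). Ndufb7 had 0.34 ± 0.14, and Ndufa10, an accessory subunit of the membrane arm, had 0.20 ± 0.08. Groups did not overlap for Ndufa2, Ndufa12, Uqcrb and Atp5h, that is for 4.94% of the members, against 1.44% of all genes. Without SFN-fed cKOAstro 2 the median was 0.15 with 7 members at an unadjusted p under 0.05, and without SFN-fed cKOAstro 1 it was 0.09 with 10. The count was 4 without ConAstro 1, 19 without SFN-fed cKOAstro 3 or 5, and 20 without SFN-fed cKOAstro 7.

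A test of the interaction asks whether the difference between genotypes was itself unlike on the 2 diets. It was positive in 77 of 81 members, with a median of 0.17, against -0.004 for all genes. In edgeR 0 members and 0.0% of all genes passed an adjusted p of 0.05, and DESeq2 and limma-voom called 0 members, so no member was shown to respond differently. At an unadjusted p under 0.05, 4 were positive and 1 negative, against 4.36% and 2.96% of all genes. Ndufa3 (0.35 ± 0.15) and Ndufv1 (0.25 ± 0.11) were positive. Ndufa4l2 was negative at -0.65 ± 0.28 (unadjusted p = 0.0303 and adjusted p = 0.674 in edgeR). It had 20.9, 19.5, 13.4 and 18.9 CPM in ConAstro and ran from 17.1 through 20.8 to 25.4 in cKOAstro. Mural markers were also negative in 9 of 9, 5 of them at an unadjusted p under 0.05, and their part was not tested. Without both libraries that go against their labels Ndufa4l2 had -0.70 ± 0.28, and mural markers were negative in 9 of 9, 7 at that threshold. Then 8 members were positive and 1 negative at that threshold, where 912 and 524 of 17264 genes were. The members' median was then 0.21, against 0.003 for all genes. Without SFN-fed cKOAstro 1 it was 0.11.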

How the data were processed

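Poly(A) RNA of 23 astrocyte isolates was sequenced, 1 library per mouse. The raw counts per gene were deposited by the authors, who checked reads with FastQC, aligned them to mm10 with STAR and took counts per gene from STAR. The STAR version, the annotation and the strand setting are not given in the sources used here, so reads of overlapping genes on opposite strands may not be told apart. Counts were not normalized by the authors in this table.

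Symbols were matched to GENCODE M21 (GRCm38) for transcript lengths, coordinates and shared sequence. Genes passed edgeR's filterByExpr (minimum count 10, minimum total 15) and were compared with edgeR 4.0.16 in R 4.3.3 (TMM scaling, quasi-likelihood test), each pair of groups fitted alone and the interaction on all 4 groups, with Benjamini-Hochberg adjustment over all genes. CPM used TMM-scaled library sizes, and log2 CPM a prior count of 2. Totals of 46890715 to 391701247 counts left counting error small for all but the least expressed members. Alternatives were DESeq2 1.42.0, limma-voom (limma 3.58.1), RLE scaling, no filter, 1 fit of all groups, a block for the replicate number, the name series of the libraries, removal of a length trend (loess span 0.3), and leaving out libraries. The procedure was tested on simulated data.

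Within groups, every pair of libraries differed beyond sampling noise (chi-square per degree of freedom of 44.1 or more), so each counted as 1 replicate. The genes named are the 5 members of each complex (complex II: 4) with the lowest p between genotypes on the SFN diet, the 3 with the lowest p in each other comparison, paired isoforms, and the highest and lowest level of each complex. Ndufs1, Uqcrc2, Atp5a1, Ndufs3, Ndufa12 and the shares of sequence were added after their values were seen. The members and gene lists were chosen with earlier results of these data known.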

Additional observations from a re-analysis of the deposited data

Results flagged for a closer look

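In 208 groups of 4 to 7 libraries, 18 held a library set apart from the others by Dixon's criterion. Chance flags about 1 in 20 independent groups. These groups are largely genes of the same libraries that move together, so the flags are not independent and the rates cannot be compared. Most of the 18 concern SFN-fed cKOAstro 1. There Sdhd stood at 90.1 CPM (others of the group 64.6 to 73.9), Uqcrq at 108 (63.5 to 74.7), Uqcr11 at 80.03 (48.1 to 59.9) and Ndufb8 at 106 (68.9 to 84.8). Of complex IV, Cox7c stood at 66.6 (41.6 to 50.2), Cox6c at 122 (73.8 to 93.2), Cox5a at 92.5 (63.9 to 75.6), Cox7b at 66.9 (41.2 to 50.2), Cox8a at 203 (112 to 137) and Ndufa4, by symbol in complex I, at 110.2 (70.4 to 86.6). Atp5g3 stood at 199 (137 to 162). The mean log2 deviation of complex IV in that library was 0.53, where the others lay between -0.07 and 0.14.

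In cKOAstro 1 the mean log2 deviation was -0.30 over all members (others -0.04 to 0.13) and -0.43 over complex IV (others 0.00 to 0.22). In ConAstro 4 it was -0.19 over complex IV (others 0.03 to 0.04), and in ConAstro 1 it was -0.070 over complex III, where the others lay at -0.04. Each gene weighs the same in these means, also at a low level. In ConAstro 4 Cox8b stood at 0.026 CPM (others 0.18 to 0.52) and Cox6a2 at 0.60 CPM (others 0.66 to 1.91). Of higher subunits there, Cox5a (71.0 CPM) was the highest of the ConAstro libraries and Cox8a (113 CPM) the lowest. Ndufb7 stood at 44.7 CPM in ConAstro 1 (others 48.8 to 49.1). Cox8b stood at 0.488 CPM in cKOAstro 5 (others 0.035 to 0.227). No member's interaction of genotype and diet passed adjustment in edgeR.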

How the results depend on the processing

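All counts here are of members at an unadjusted p under 0.05 unless said otherwise. For cKOAstro against ConAstro (1) the count was 4 in limma-voom, where 4.83% of all genes were higher at that threshold against 1.71% in edgeR. It was 3 within the numbered libraries (1.73% of all genes higher). It was 0 in the fit of all groups, with the replicate block and with the length trend removed. For the genotypes on the SFN diet (44 in either direction) it was 14 with the length trend removed, with a median log2 fold change of 0.074, and limma-voom called 27 members after adjustment, where the other alternatives that kept all libraries called 0. For SFN-fed ConAstro against ConAstro (3) it was 0 in the fit of all groups and with the replicate block. With the name series as covariate it was 16, with 1 higher, where 4.28% of all genes were higher. It was 20 within the numbered libraries and without both libraries that go against their labels. There 727 of 16405 genes were lower and 652 higher. For SFN-fed cKOAstro against cKOAstro (3) it was 6 in limma-voom (13.9% of all genes higher, against 5.38% in edgeR) and 0 within the numbered libraries and without both such libraries. For SFN-fed cKOAstro against ConAstro (9) it was 14 in DESeq2 and with no filter, 19 in limma-voom (12.2% of all genes higher, against 4.01% in edgeR), 21 in the fit of all groups (9.64% of all genes higher) and with the replicate block (1.70%), and 3 with the length trend removed. For the interaction (5) it was 15 in limma-voom (11.5% of all genes positive, against 4.36% in edgeR) and within the numbered libraries (5.67%). It was 10 with RLE scaling, 8 with the length trend removed and 2 with the replicate block. Without both such libraries it was 9, where 912 of 17264 genes were positive and 524 negative. The numbered libraries were pooled over numbers, which differ between groups: all ConAstro libraries carry 143, and numbered cKOAstro libraries carry 141 or 146, so number and group cannot be told apart there. The cause was not tested.

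Leaving out 1 library at a time gave, in the order above, 0 to 12, 19 to 55, 0 to 20, 0 to 9, 4 to 20 and 0 to 19 members. The medians were 0.02 to 0.09, 0.15 to 0.25, -0.10 to -0.03, 0.06 to 0.15, 0.09 to 0.19 and 0.11 to 0.19. The share of all genes higher at that threshold ran from 1.24% to 6.05% for cKOAstro against ConAstro. Between genotypes on the SFN diet it ran from 8.12% to 14.6%. For the interaction, the count was 0 without SFN-fed ConAstro 2, 1 without ConAstro 3, and 3 without cKOAstro 1 or 7, SFN-fed ConAstro 5 or SFN-fed cKOAstro 2. It was 8, 12, 13, 14, 15 and 19 without SFN-fed cKOAstro 6, SFN-fed cKOAstro 7, cKOAstro 4, SFN-fed cKOAstro 3, SFN-fed ConAstro 1 and, last, SFN-fed cKOAstro 5. After adjustment 0 to 2 members passed on the SFN diet and 0 in the other comparisons.

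Replicate numbers did not pair the libraries. Correlations of same-numbered libraries ran from -0.21 to 0.34, and at most 2 pairs of a comparison lay over 0.1. The replicate block gave 53 members, all higher, for the genotypes on the SFN diet (median 0.25), where 9.28% of all genes were higher. For cKOAstro against ConAstro it gave a median of -0.01 with 37 of 81 higher.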

Other observations

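Markers of other cell types that the isolates could hold were compared between SFN-fed cKOAstro and SFN-fed ConAstro as lists, without a set test. Microglial markers were lower in 10 of 10, with a median log2 fold change of -0.54 and 0 at an unadjusted p under 0.05 in edgeR. Their summed level ranged from 893 to 2788 CPM and from 294 to 3265 CPM in SFN-fed ConAstro and SFN-fed cKOAstro, so single libraries differed widely. Fibroblast markers were lower in 6 of 6, 4 at that threshold (median -0.57), and oligodendrocyte precursor markers in 6 of 7, 1 at that threshold (median -0.50). Oligodendrocyte markers were higher in 8 of 9, 1 at that threshold (median 0.26), and reached 57226 CPM in SFN-fed cKOAstro 4. Ependymal markers were higher in 6 of 6 with 0 at that threshold (median 0.26). Neuronal markers were higher in 7 of 10, 1 at that threshold (median 0.06), and astrocyte markers in 4 of 10, with 1 higher and 1 lower at that threshold (median -0.04). The lower astrocyte marker was Slc1a3, the gene that holds the Cre insertion. It had a log2 fold change of -0.78 ± 0.26 (unadjusted p = 0.0117 and adjusted p = 0.195 in edgeR). Immediate early genes, which dissociation can induce, were higher in 2 of 10, with 1 lower at that threshold (median -0.28). Of 5 red blood cell markers, 4 were at 0 in every library. When both libraries that go against their labels were left out, microglial markers were lower in 7 of 10, 0 at that threshold (median -0.14). Neuronal markers were higher in 5 of 10 (-0.004), oligodendrocyte markers in 9 of 9 (0.28) and ependymal markers in 6 of 6 (0.13). Fibroblast markers were lower in 6 of 6 (-0.52) and oligodendrocyte precursor markers in 5 of 7 (-0.51). Astrocyte markers were higher in 3 of 10 (-0.11) and immediate early genes in 2 of 10 (-0.19). The part of these cells in the values of the subunit genes was not tested.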
